A study of Homo sapiens with 12 samples.

Results

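The NRF2 target and redox genes described here are a list of 38 genes chosen by function: the transcription factor NRF2, its inhibitor and a partner, and genes of glutathione, thioredoxin, NADPH, heme, iron and drug metabolism that NRF2 is known to control. The list was chosen with earlier results of these data known. All 38 genes had a row among the 40605 gene rows of the count table, and 35 of them were among the 13047 genes with enough reads to be tested. RNA was measured in A549 cells, a human lung adenocarcinoma line, that carried a doxycycline-inducible (tet-ON) gene for the protein kinase DYRK1B, in its wild-type form (WT) or as Y273F, in which the tyrosine of the activation loop is replaced by phenylalanine. Each line was kept for 7 days without doxycycline (control) or with 2 µg/ml of it, and each of the 4 labelled groups (WT control and WT doxycycline, Y273F control and Y273F doxycycline) had 3 libraries. All cells of both lines were A549 with the inducible system, a line that lacks the construct was not analysed here, and the sources used here do not say whether a line is 1 clone. None of the 35 tested genes passed the test between labelled groups. The spread among the libraries of a group was larger for most of these genes than the spread within sets of libraries that cut across the labels, and in libraries 2, 6 and 10 NQO1, GPX2, PGD, GCLC and ABCC3 were low while HMOX1 and TXNRD1 were high.

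NRF2, encoded by NFE2L2, is a transcription factor that is normally bound by KEAP1 and handed to a ubiquitin ligase for degradation. Electrophiles and oxidants modify cysteines of KEAP1, NRF2 then accumulates, pairs with a small MAF protein such as MAFG and binds antioxidant response elements near its target genes. A549 cells carry a KEAP1 mutation that weakens this control, and they are known for a high constant output of NRF2 target genes. HMOX1 is also held down by the repressor BACH1, which binds the same elements and is released by heme.

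The antioxidant response element was looked for in the RefSeq promoter windows (GRCh38.p14) of 250 bases before and 50 bases after each start, as its core TGACNNNGC on both strands with no other motif searched. Windows were at hand for 28 of the 38 genes, 36 windows in all. The core was present in 13 of the 36 windows (36.1%) and in 4687 of all 35116 windows (13.3%). By gene, 12 of 28 (42.9%) held it, against 4384 of 27305 (16.1%). A match is a run of letters and not a shown binding site. The matches below, each with its flanks, were chosen because their genes carry the differences described further on, or, for GCLM and ME1, because their differences were small. Between libraries 2, 6, 10 and 1, 5, 9 these were -0.13 and 0.19 log2 units. Not shown are matches that reach past the start, among them those of PIR and MGST1. Also left out are the matches of CBR1, EPHX1 and UGT1A6 and a further match of KEAP1. Each is written 5′ to 3′ on the strand of its gene, with the core in capitals, and GCNNNGTCA is the core read on the other strand.
GPX2, chr14:64942849-64942877, minus strand: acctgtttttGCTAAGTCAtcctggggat
PGD, chr1:10398853-10398881, plus strand: cctcgccgggGCAATGTCAtctaggtgct
KEAP1, chr19:10502784-10502812, minus strand: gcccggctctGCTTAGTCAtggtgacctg
GSTP1, chr11:67583736-67583764, plus strand: gccggcgccgTGACTCAGCactggggcgg
TXNRD1, chr12:104215670-104215698, plus strand: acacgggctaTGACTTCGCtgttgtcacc
TXNRD1, chr12:104286920-104286948, plus strand: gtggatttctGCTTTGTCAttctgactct
GCLM, chr1:93909446-93909474, minus strand: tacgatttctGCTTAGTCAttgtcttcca
ME1, chr6:83431170-83431198, minus strand: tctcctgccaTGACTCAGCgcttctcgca
The windows of TXNRD1 belong to separate starts of the gene. GPX2 and PGD had the most negative differences of all tested members between libraries 2, 6, 10 and 1, 5, 9, so the 250 bases before their starts are given in full, with the core again in capitals.
GPX2, chr14:64942746-64942995, minus strand: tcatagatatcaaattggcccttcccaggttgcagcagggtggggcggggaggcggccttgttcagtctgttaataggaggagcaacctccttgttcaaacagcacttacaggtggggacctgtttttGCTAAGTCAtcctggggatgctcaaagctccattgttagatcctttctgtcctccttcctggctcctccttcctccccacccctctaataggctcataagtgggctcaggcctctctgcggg
PGD, chr1:10398814-10399063, plus strand: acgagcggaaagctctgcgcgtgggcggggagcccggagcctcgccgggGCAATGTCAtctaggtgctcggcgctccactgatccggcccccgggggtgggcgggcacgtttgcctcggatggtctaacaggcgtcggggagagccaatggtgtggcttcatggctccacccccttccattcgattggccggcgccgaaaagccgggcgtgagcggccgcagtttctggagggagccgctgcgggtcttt
The windows of NQO1, GCLC and UGDH, which were also low in libraries 2, 6 and 10, did not hold these letters. Bases outside the windows were not searched, so a gene without a match may hold the element elsewhere. Of the 11 tested members with a core match, 4 were at least 1.5-fold lower in those libraries than in libraries 1, 5 and 9 with no overlap, 0 were higher, and 7 were neither. The 4 were GPX2, PGD, KEAP1 and PIR. Among the 15 tested members with a window and no match, the numbers were 3, 2 and 10. Over all tested genes, 13.6% were lower and 16.4% higher in this comparison. The shares for all genes with and without the core were not computed. Whether the core goes with a direction was not tested.

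Libraries are called here by group and replicate or by the library number in the labels: 1 to 3 are WT control 1 to 3, 4 to 6 are WT doxycycline 1 to 3, 7 to 9 are Y273F control 1 to 3, and 10 to 12 are Y273F doxycycline 1 to 3. Levels are CPM, gene counts scaled to the library total and by TMM factors (a correction for libraries that differ in makeup). Totals ranged from 2783265 counts in library 10 to 22028624 in library 9, so that 3 counts, taken as the floor, were worth 0.134 to 1.07 CPM, which covers counting error only. The members' own reads were 1.73 to 2.67% of the counts of a library. The gene meant to be induced goes against the labels: DYRK1B was at 28.6, 12.6 and 20.0 CPM in libraries 4, 8 and 12 and at 2.63 to 7.79 CPM in the other 9, including the libraries labelled WT doxycycline 2 and 3 and Y273F doxycycline 1 and 2. Reads at the 3' end count this gene, and the sources used here do not say whether the construct keeps that end. CDKN1A, which encodes the cell cycle inhibitor p21, was at 242 to 275 CPM in libraries 2, 6 and 10 and at 43.0 to 63.3 CPM elsewhere. The members were therefore described both by the labelled groups and by the library sets 1, 5, 9; 2, 6, 10; 3, 7, 11; and 4, 8, 12. The labels do not give these sets. Whether each title belongs to the library that carries it was not tested, and every labelled fold change here compares the libraries as titled. Each set holds 1 library from 3 of the 4 labelled groups, they were proposed with earlier results of these data known, and they are compared without a test.

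By the labels, no member passed the test. In edgeR's quasi-likelihood test, 0 of 35 members and 0 of 13047 genes (0%) had an adjusted p under 0.05 in doxycycline against control in WT, in the same comparison in Y273F (0%), in the difference of the doxycycline effects (0%) and in Y273F control against WT control (0%). Over all genes, 118, 215, 161 and 445 had an unadjusted p under 0.05 in these 4 comparisons, and no member was among them. The DESeq2 Wald test called 0, 0, 0 and 2 genes and limma-voom 0 in each, none of them a member. The series text describes 3 cell populations grown in parallel, and the p-values measure the spread between these libraries.

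With doxycycline in WT, the members' log2 fold changes had a median of -0.0076, with 14 above 0 and 21 below, beside a median of -0.00158 over all genes. Doxycycline in Y273F gave a median of -0.109, with 10 above and 25 below, beside 0.0103 over all genes. The difference, WT effect minus Y273F effect, had a median of 0.0751 (25 above, 10 below; all genes -0.0175). Y273F control against WT control gave 0.0544 (25 above, 10 below; all genes -0.0257). These comparisons share control libraries, so their signs are not independent. Without libraries 2, 6 and 10 the members' medians were -0.0333, -0.0376, 0.0263 and -0.0292, farther from 0 in the first comparison, nearer 0 in the others, and with the sign turned in the last. Leaving out 1 library at a time also moved these medians. In WT the median ran from -0.0604 to 0.0723 and was above 0 without library 1 (0.0544) or 6 (0.0723), and in Y273F it ran from -0.145 to -0.0377, the latter without library 10. The difference ran from -0.00269 to 0.146 and was below 0 without library 2 (-0.00151) or 5 (-0.00269), and the controls ran from -0.0325 to 0.168, below 0 without library 2 (-0.0325) or 9 (-0.0255). The plot of the 3 comparisons of group pairs shows how wide the intervals were for the genes that vary most.

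**Figure D1:**
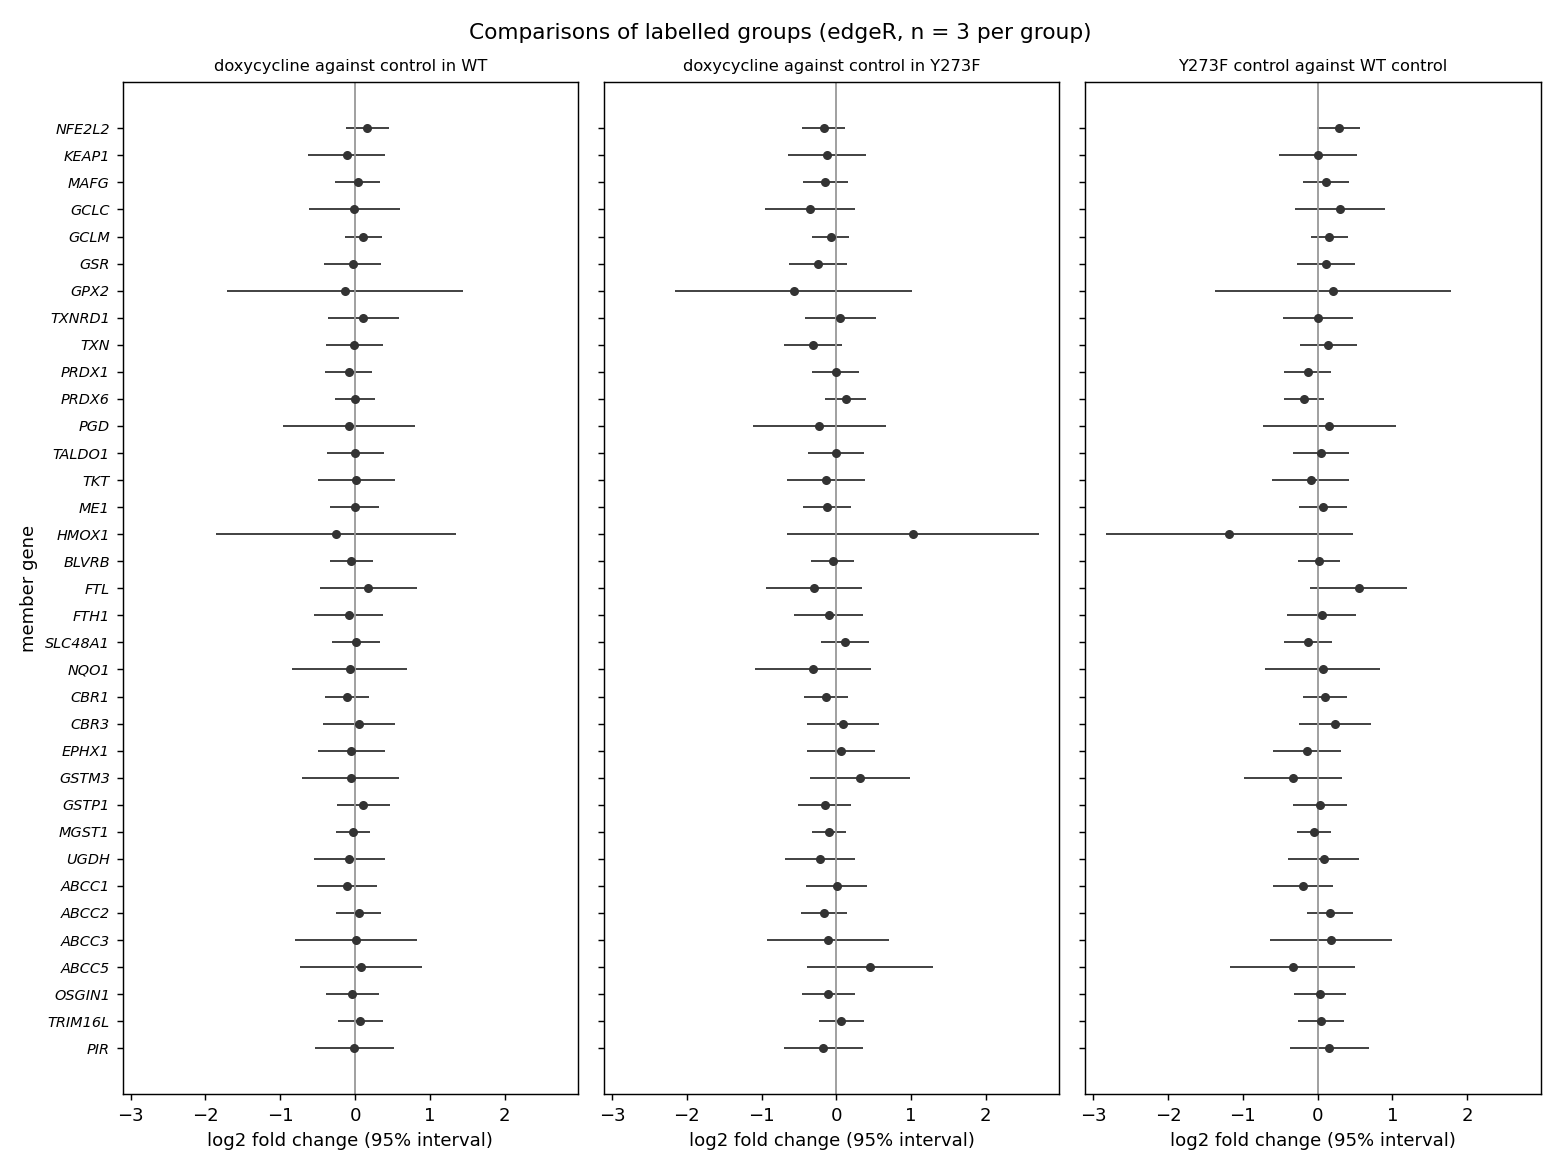
Log2 fold change of each of the 35 tested members with its 95% confidence interval (edgeR, 3 libraries per group) for doxycycline against control in WT, the same in Y273F, and Y273F control against WT control, on a shared axis. All intervals include 0, and those of HMOX1 and GPX2 are the widest.

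The members' average level differed by library set. The level of the list, the members' average deviation in log2 CPM from each gene's own mean, was 0.0886 to 0.144 in libraries 1, 5 and 9, -0.0104 to 0.0997 in 3, 7 and 11, -0.0424 to -0.0312 in 4, 8 and 12, and -0.177 to -0.112 in 2, 6 and 10. Libraries 1, 5, 9 and 3, 7, 11 overlapped in this level, and no other sets did. Among the 4 sets, the mean log2 CPM was highest in libraries 1, 5 and 9 for 19 of 35 members and lowest in libraries 2, 6 and 10 for 18. The same counts over all genes were not made, so these counts have no background beside them. The median SD of a member's log2 CPM was 0.238 within labelled groups and 0.117 within sets, and it was smaller within sets for 32 of 35 members, beside 81.5% of all tested genes.

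**Figure D2:**
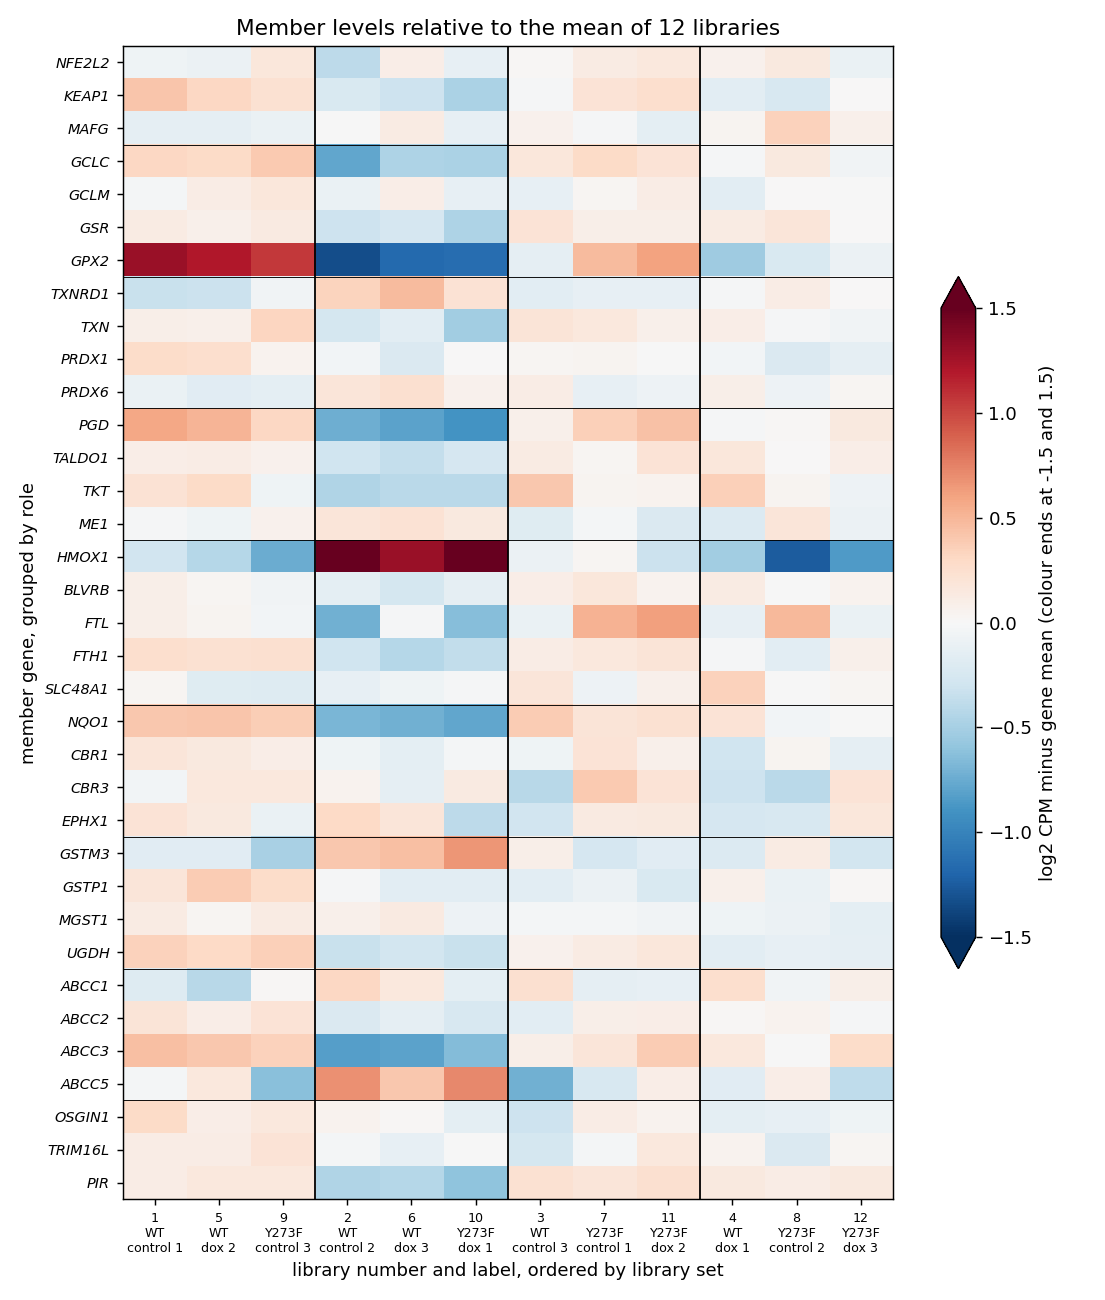
Deviation of log2 CPM from the mean of each gene, for the 35 tested members (rows, grouped by role) in the 12 libraries (columns, ordered by library set, with number and label); the colour ends at -1.5 and 1.5. GPX2, PGD, NQO1, GCLC and ABCC3 are below their means in libraries 2, 6 and 10, where HMOX1, ABCC5 and GSTM3 are above theirs.

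Many of these genes set libraries 2, 6 and 10 apart. The list was chosen with earlier results of these data known, so its shares beside those of all genes are descriptive. Of 35 tested members, 13 were lower in each of these 3 libraries than in all other 9, which is 37.1% beside 16.3% of all genes: NQO1, GCLC, TXN, PGD, TALDO1, TKT, FTH1, GSR, GPX2, ABCC3, UGDH, BLVRB and PIR. HMOX1, TXNRD1, ABCC5 and GSTM3, 4 members or 11.4%, were higher than in all other 9, beside 18.8% of all genes. Against libraries 1, 5 and 9 alone, 20 members were below with no overlap (27.6% of all genes) and 6 were above (27.7%). With a difference of at least 1.5-fold as well, 9 were lower (13.6% of all genes) and 3 higher (16.4%). The members' median difference was -0.224 log2 units, beside -0.019 over all genes. RNA of other cell types was looked for in the same libraries. The summed level of 11 fibroblast and smooth muscle markers was 309 to 390 CPM in libraries 2, 6 and 10 and 32.0 to 63.1 CPM elsewhere. All 5 tested markers of this list were higher there than in 1, 5 and 9. The sum rests mainly on COL1A1, TAGLN and ACTA2, with 4062, 2044 and 1833 reads in all libraries together. LUM and CNN1 had 237 and 81 reads. COL3A1, PDGFRA, PDGFRB, COL1A2, MYH11 and DCN were nearly absent, with 35, 23, 18, 10, 5 and 1 reads. The 12 A549 epithelial markers summed to 12600 to 16400 CPM there and to 4960 to 7000 CPM elsewhere. SFTPB, a surfactant protein gene of alveolar cells, was at 0 throughout. SFTPC and NKX2-1 were nearly absent, with 15 and 7 reads in all libraries together. KRT18, a keratin, alone gave 6219.8 to 8537 CPM of the epithelial sum in 2, 6 and 10. The list also holds VIM and CDH2, which are not confined to epithelium. Of the adhesion genes that define epithelium, EPCAM was 5.39-fold lower in 2, 6 and 10 than in 1, 5 and 9 with no overlap but overlapped 4, 8 and 12, and CDH1 was 1.77-fold and 2.13-fold lower than in these sets with no overlap. Endothelial and blood markers summed to 5.97 to 14.2 CPM in all libraries, with VWF, KDR and CD3E at 0. The part of these RNAs in the differences was not tested, and in RNA from whole cultures fewer cells of a kind and less RNA per cell cannot be told apart.

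The counts were smaller in the other pairs of sets. In libraries 2, 6 and 10 against 4, 8 and 12, 15 members were below with no overlap (23.1% of all genes) and 4 above (25% of all genes); 6 were at least 1.5-fold lower (11.3%) and 3 higher (14.7%), with a median of -0.173 log2 units. Leaving out 1 library there gave 5 to 7 lower members (12.3 to 13.3% of all genes) and 2 to 3 higher (15.4 to 16.3%). The medians ran from -0.209 to -0.147. GCLC was no longer at least 1.5-fold lower without library 2 or 8, or without TMM factors. In libraries 3, 7 and 11 against 1, 5 and 9, 8 were below (9.99%) and 1 above (9.67%), with 1 at least 1.5-fold lower (2.57%), 0 higher (2.28%) and a median of -0.0757. In libraries 4, 8 and 12, where DYRK1B was high, against 3, 7 and 11, 7 members were below (8.5%) and 1 above (8.99%), with 1 at least 1.5-fold lower (2.13%), 0 higher (2.55%) and a median of -0.0631. As shares, 22.9% and 20.0% of the members were below in these last pairs, above the shares of all genes, but nearly all by less than 1.5-fold. Pairs that share a set are not independent of each other.

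**Figure D3:**
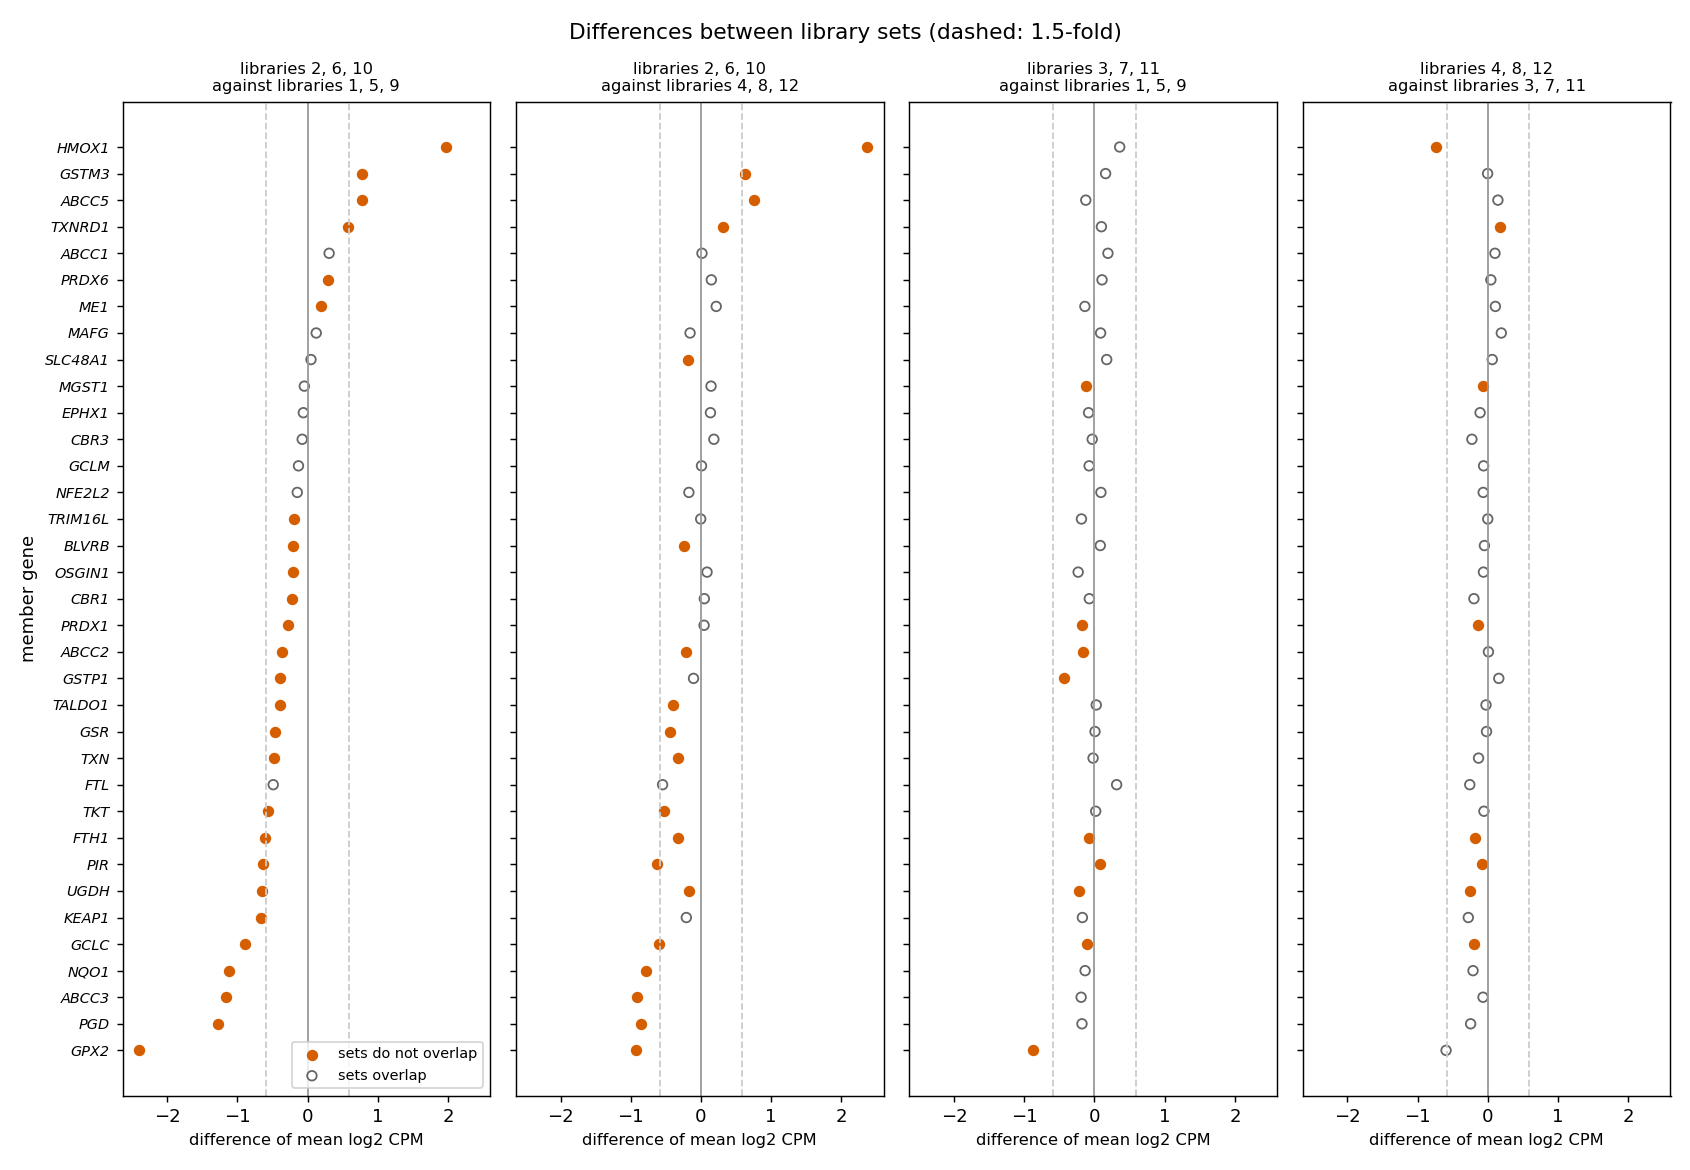
Difference of mean log2 CPM between library sets for each of the 35 tested members in the 4 pairs of sets; filled points mark members whose sets do not overlap, and dashed lines mark 1.5-fold. HMOX1 and GPX2 lie at the ends of the first panel, at 1.98 and -2.40. Most members lie inside the dashed lines in all panels, and more lie outside them in the panels with libraries 2, 6 and 10.

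Among the sensor and transcription factors, NFE2L2 (chr2:177230303-177264727), the gene of NRF2 itself, was read at 98.5, 78.4 and 104 CPM in WT control, 108, 97.2 and 111 CPM in WT doxycycline, 112, 114 and 116 CPM in Y273F control and 94.4, 115 and 95.9 CPM in Y273F doxycycline. The Y273F control libraries all lay above the WT control libraries, and no library set lay apart from the rest. The log2 fold change of Y273F control against WT control was 0.28 (SE 0.13), with an unadjusted p of 0.0529 in edgeR's test and an interval of -0.0042 to 0.57; without libraries 2, 6 and 10 it was 0.17. With doxycycline it was 0.16 (SE 0.13) in WT and -0.17 (SE 0.13) in Y273F. KEAP1 (chr19:10486125-10503356), the inhibitor, was read at 104, 66.3 and 77.2 CPM in WT control, 69.7, 96.4 and 63.0 CPM in WT doxycycline, 90.2, 66.0 and 91.6 CPM in Y273F control and 55.8, 92.5 and 78.3 CPM in Y273F doxycycline. Its labelled groups overlapped, and libraries 2, 6 and 10 were below libraries 1, 5 and 9, by 1.58-fold. In KEAP1 the sets 2, 6, 10 and 4, 8, 12 overlapped. Doxycycline gave KEAP1 a log2 fold change of -0.11 (SE 0.24) in WT and -0.13 (SE 0.24) in Y273F. MAFG, the partner, was at 149 to 154 CPM in libraries 1, 5 and 9 and at 169 to 209 CPM in 4, 8 and 12, and its last 500 bases overlap SIRT7 on the same strand in GENCODE 29, so reads of both genes may be mixed or left out.

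**Figure D4:**
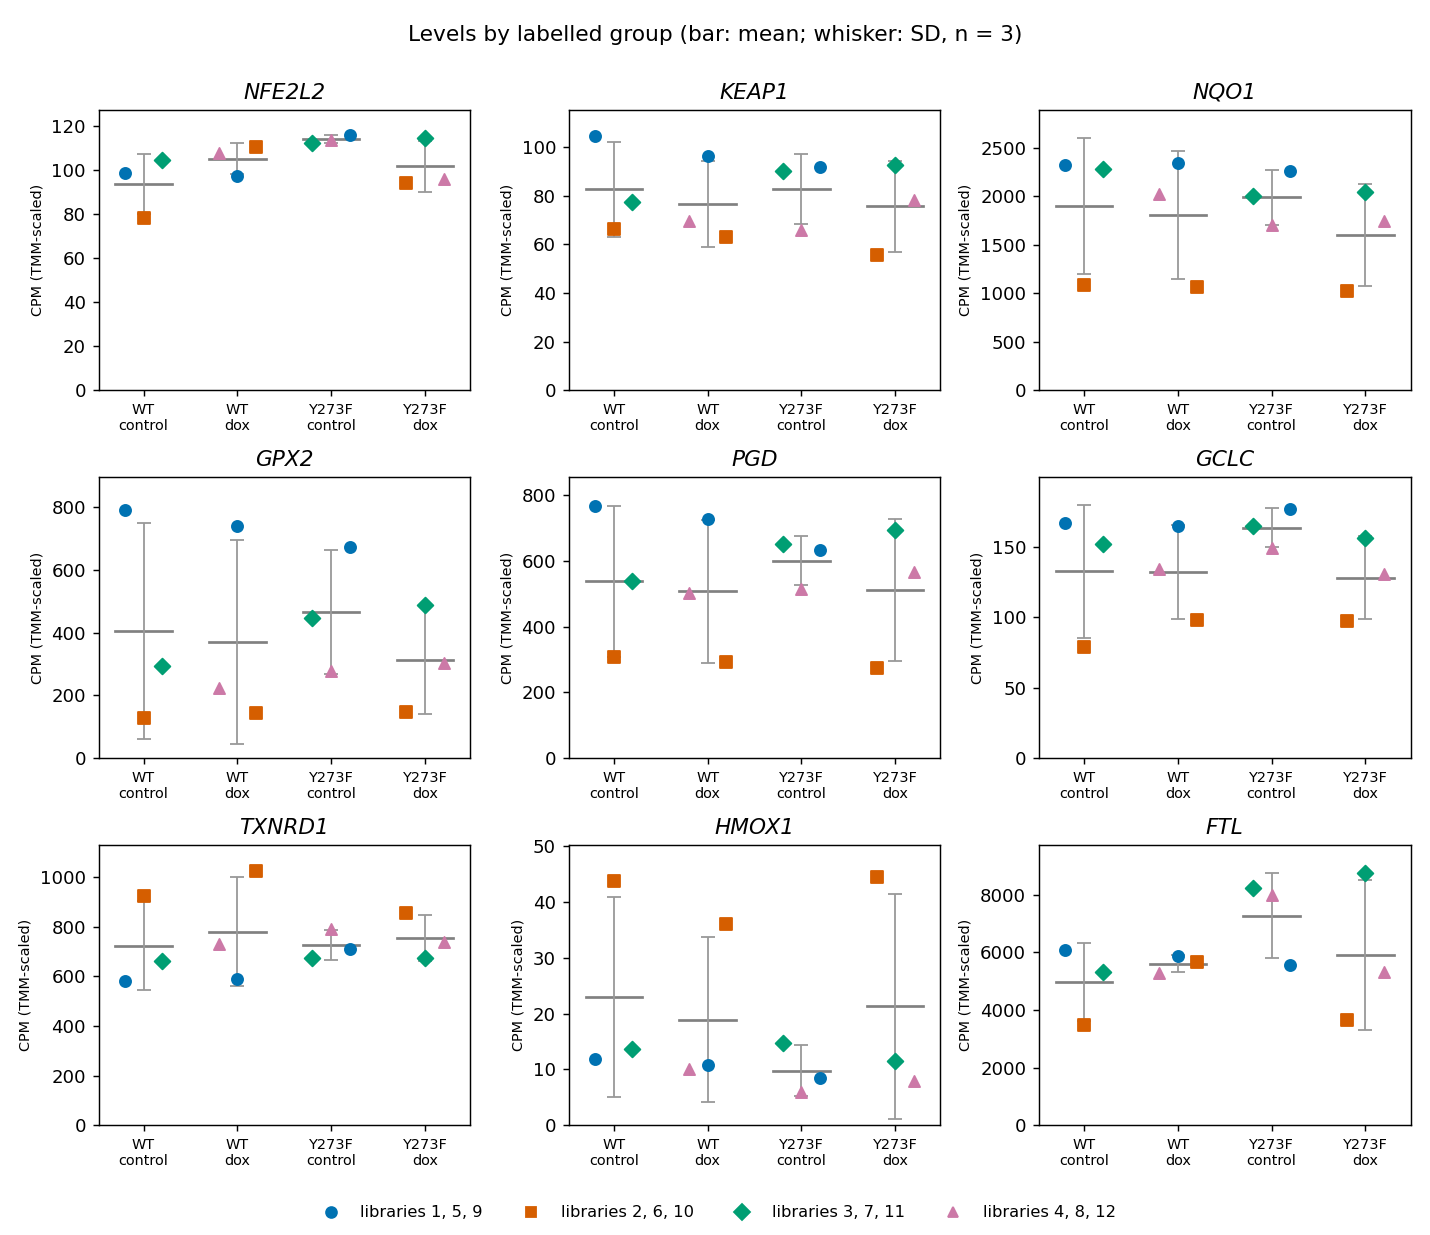
CPM of 9 members in each library by labelled group (bar, mean; whisker, SD; 3 libraries per group), with the library set given by colour and shape. For NQO1, GPX2, PGD and GCLC the lowest libraries are 2, 6 and 10 whichever group they are labelled as, and for HMOX1 and TXNRD1 those libraries are the highest.

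In the glutathione group, GCLC and GCLM encode the catalytic and the modifier subunit of the enzyme that makes the first bond of glutathione. GCLC (chr6:53497341-53545101) was read at 167, 78.9 and 152 CPM in WT control, 134, 165 and 97.9 CPM in WT doxycycline, 164, 149 and 177 CPM in Y273F control and 97.2, 156 and 131 CPM in Y273F doxycycline. GCLC was lowest in libraries 2, 6 and 10, 1.86-fold below libraries 1, 5 and 9, while the labelled groups overlapped. Its log2 fold change with doxycycline was -0.01 (SE 0.27) in WT and -0.35 (SE 0.28) in Y273F, and 0.30 (SE 0.28) between the controls, and without libraries 2, 6 and 10 these were -0.0956, -0.198 and 0.0406. GCLM (chr1:93885199-93909430) stood at 256, 243 and 240.4 CPM in WT control, 235, 283 and 279.6 CPM in WT doxycycline, 268, 262 and 295 CPM in Y273F control and 239.9, 283 and 261 CPM in Y273F doxycycline. All 4 pairs of sets overlapped in GCLM, with a difference of -0.13 log2 units between libraries 2, 6, 10 and 1, 5, 9. The Y273F controls were above the WT controls, by 0.16 (SE 0.11) on the log2 scale. The sets were thus apart in the catalytic subunit and not in the modifier.

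GPX2 (chr14:64939158-64942745), a selenium-containing glutathione peroxidase of epithelial cells, was read at 793, 128 and 294 CPM in WT control, 222, 742 and 144 CPM in WT doxycycline, 448, 276 and 674 CPM in Y273F control and 147, 489.8 and 304 CPM in Y273F doxycycline. Within WT control alone it ran from 128 CPM in library 2 to 793 CPM in library 1, and the labelled groups overlapped. By set, libraries 1, 5 and 9 (674 to 793 CPM) lay above all others, libraries 3, 7, 11 (294 to 489.8) and 4, 8, 12 (222 to 304) overlapped, and libraries 2, 6 and 10 (128 to 147) lay below all others. The fold differences were 5.27-fold lower in 2, 6 and 10 than in 1, 5 and 9, 1.90-fold lower than in 4, 8 and 12, and 1.83-fold lower in 3, 7 and 11 than in 1, 5 and 9. With doxycycline the log2 fold change was -0.13 (SE 0.72) in WT and -0.57 (SE 0.72) in Y273F, with intervals of -1.71 to 1.45 and -2.16 to 1.01, and the difference of these effects was 0.44 (SE 1.02). Without libraries 2, 6 and 10 these 3 values were -0.171, -0.242 and 0.0713. GSR, which returns oxidised glutathione to its reduced form, was at 257 to 296 CPM in libraries 2, 6 and 10 and at 373 to 389, 374 to 406 and 354 to 402 CPM in the sets 1, 5, 9; 3, 7, 11; and 4, 8, 12.

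The thioredoxin group differed between the sets in both directions. TXNRD1 (chr12:104215779-104350307), the cytosolic thioredoxin reductase, was read at 583, 925 and 661 CPM in WT control, 729, 590.3 and 1023 CPM in WT doxycycline, 676, 793 and 712 CPM in Y273F control and 855, 674 and 737 CPM in Y273F doxycycline. Its highest libraries were 2, 6 and 10, 1.49-fold above libraries 1, 5 and 9, and libraries 4, 8 and 12 lay above 3, 7 and 11 by 0.17 log2 units with no overlap. The labelled groups overlapped, and its log2 fold change with doxycycline was 0.11 (SE 0.21) in WT and 0.05 (SE 0.21) in Y273F. TXN, the thioredoxin that this enzyme reduces, went the other way: it was at 884 to 1138 CPM in libraries 2, 6 and 10 and at 1346 to 1590.1, 1345 to 1453 and 1227 to 1365 CPM in the other sets in number order. PRDX1 (chr1:45511051-45522890), a peroxiredoxin that removes peroxide with thioredoxin, stood at 2369.7, 1894 and 1988 CPM in WT control, 1902, 2321 and 1683 CPM in WT doxycycline, 2001, 1683 and 2024 CPM in Y273F control and 1955, 1938 and 1777 CPM in Y273F doxycycline. Libraries 1, 5 and 9 were above every other library in PRDX1, and its differences from them were -0.28 log2 units in 2, 6 and 10 and -0.18 in 3, 7 and 11. PRDX6, which works with glutathione, was 0.30 log2 units higher in 2, 6 and 10 than in 1, 5 and 9, with no overlap. SRXN1 (chr20:646615-653200), sulfiredoxin, which repairs overoxidised peroxiredoxins, had 0 counts in all 12 libraries. The last 500 bases of SRXN1 overlap AL121758.1 on the same strand in GENCODE 29, and the sources used here do not say how reads over shared bases were counted, so this 0 does not show that SRXN1 was silent.

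In NADPH supply, PGD (chr1:10399064-10420511), the second dehydrogenase of the pentose phosphate pathway, was read at 766, 307 and 539.6 CPM in WT control, 502, 728 and 292 CPM in WT doxycycline, 651, 514 and 633 CPM in Y273F control and 274, 695 and 567 CPM in Y273F doxycycline. PGD was lowest in libraries 2, 6 and 10, 2.43-fold below libraries 1, 5 and 9 and 1.81-fold below 4, 8 and 12, and the labelled groups overlapped. With doxycycline its log2 fold change was -0.08 (SE 0.40) in WT and -0.23 (SE 0.40) in Y273F. TALDO1 and TKT, transaldolase and transketolase of the non-oxidative branch, were also lower in 2, 6 and 10 than in all other libraries, at 325 to 350.0 CPM against 419 to 479 CPM and at 532 to 548 CPM against 690 to 957 CPM. ME1, the cytosolic malic enzyme, differed from them in direction: it was 0.19 log2 units higher in 2, 6 and 10 than in 1, 5 and 9, at 164 to 173 CPM against 142 to 156 CPM.

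In the heme and iron group, HMOX1 (chr22:35381096-35394207), heme oxygenase, which opens the heme ring and frees its iron, had the largest positive difference among the members between libraries 2, 6, 10 and 1, 5, 9. It was read at 11.8, 43.6 and 13.6 CPM in WT control, 10.0, 10.7 and 36.0 CPM in WT doxycycline, 14.8, 5.97 and 8.53 CPM in Y273F control and 44.3, 11.5 and 7.92 CPM in Y273F doxycycline. The high library in WT control, WT doxycycline and Y273F doxycycline was library 2, 6 and 10 in turn, and Y273F control, which has no library of that set, had no high library. Libraries 2, 6 and 10 were 3.94-fold above libraries 1, 5 and 9 and 5.14-fold above 4, 8 and 12. In libraries 4, 8 and 12 HMOX1 was 1.68-fold lower than in 3, 7 and 11, with no overlap, but on 69, 18 and 73 reads; without library 8 the difference was under 1.5-fold. By the labels, its log2 fold change was -0.26 (SE 0.73) with doxycycline in WT and 1.03 (SE 0.77) in Y273F, the difference of these was -1.29 (SE 1.06), and Y273F control against WT control gave -1.18 (SE 0.75). Without libraries 2, 6 and 10 these 4 values were -0.294, -0.0728, -0.222 and -0.339.

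FTL and FTH1 encode the light and heavy chains of ferritin, which stores the iron that heme breakdown frees. FTL (chr19:48965309-48966879) was read at 6084, 3465 and 5332 CPM in WT control, 5278, 5872 and 5679 CPM in WT doxycycline, 8244, 7996 and 5577 CPM in Y273F control and 3663, 8745 and 5326 CPM in Y273F doxycycline. Its libraries did not follow the sets: library 6 was at 5679 CPM, above libraries 2 and 10 and within the range of 1, 5 and 9. Y273F control against WT control gave a log2 fold change of 0.55 (SE 0.29), with an interval of -0.09 to 1.20 and an unadjusted p of 0.0872 in edgeR's test; without libraries 2, 6 and 10 it was 0.349. With doxycycline the value was 0.18 (SE 0.29) in WT and -0.30 (SE 0.29) in Y273F. FTH1 (chr11:61964285-61967634) did follow the sets, at 3664, 2507 and 3318 CPM in WT control, 3049, 3603 and 2299 CPM in WT doxycycline, 3443, 2772 and 3638 CPM in Y273F control and 2392, 3534 and 3259 CPM in Y273F doxycycline. Its lowest libraries were 2, 6 and 10, 1.52-fold below 1, 5 and 9, and libraries 4, 8 and 12 lay below 3, 7 and 11 with no overlap, at a difference of -0.18 log2 units. Both ferritin genes have many processed pseudogenes in the genome, so some of their reads may have been assigned elsewhere or left out. BLVRB, a biliverdin reductase, was at 221 to 241 CPM in 2, 6 and 10, below the 256 to 297 CPM of the other libraries, and SLC48A1, a heme transporter, ranged from 47.3 to 68.6 CPM over all libraries.

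Among enzymes of quinone and carbonyl reduction, NQO1 (chr16:69709401-69726560), a quinone reductase that is a common readout of NRF2, was read at 2320.2, 1088 and 2283 CPM in WT control, 2019.9, 2337 and 1063 CPM in WT doxycycline, 1999.8, 1702 and 2264 CPM in Y273F control and 1022, 2039 and 1744 CPM in Y273F doxycycline. Libraries 2, 6 and 10 were the lowest of all, and the highest of them was below the lowest of the other 9. NQO1 was 2.18-fold lower there than in 1, 5 and 9 and 1.72-fold lower than in 4, 8 and 12, while 4, 8, 12 and 3, 7, 11 overlapped. The labelled groups overlapped as well: the log2 fold change with doxycycline was -0.07 (SE 0.35) in WT and -0.31 (SE 0.35) in Y273F, with intervals of -0.84 to 0.70 and -1.08 to 0.46. Without libraries 2, 6 and 10 these were -0.0804 and -0.0752. CBR1, a carbonyl reductase, was lower in 2, 6 and 10 than in 1, 5 and 9 with no overlap, at a difference of -0.22 log2 units. CBR3, a relative of CBR1, and EPHX1, an epoxide hydrolase, overlapped between those sets, with differences of -0.08 and -0.06. CES1, a carboxylesterase, had 0 counts in all libraries.

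Among conjugating enzymes, GSTP1 (chr11:67583812-67586653), a glutathione transferase, was read at 1491, 1301 and 1179.5 CPM in WT control, 1388, 1714 and 1187 CPM in WT doxycycline, 1240.5, 1227 and 1597 CPM in Y273F control and 1181, 1126 and 1336 CPM in Y273F doxycycline. Libraries 1, 5 and 9 were above all others, and the difference from them was -0.39 log2 units in 2, 6 and 10 and -0.44 in 3, 7 and 11. In this gene it was libraries 1, 5 and 9 that stood apart, not 2, 6 and 10. UGDH (chr4:39498755-39527439), which makes the UDP-glucuronic acid used in glucuronidation, stood at 810.4, 505 and 663 CPM in WT control, 571, 780.2 and 525 CPM in WT doxycycline, 694, 585 and 813 CPM in Y273F control and 506, 716 and 578 CPM in Y273F doxycycline. Its sets were in order without overlap, from 1, 5, 9 (780.2 to 813 CPM) over 3, 7, 11 (663 to 716) and 4, 8, 12 (571 to 585) to 2, 6, 10 (505 to 525). GSTM3 (chr1:109733937-109741038), a further glutathione transferase, was high in the set in which most members were low, at 12.9, 19.3 and 15.4 CPM in WT control, 12.6, 12.9 and 20.0 CPM in WT doxycycline, 12.2, 15.9 and 10.3 CPM in Y273F control and 23.2, 12.9 and 11.9 CPM in Y273F doxycycline. GSTM3 was highest in libraries 2, 6 and 10, 1.72-fold above 1, 5 and 9 and 1.54-fold above 4, 8 and 12, on 65 to 144 reads. The latter difference was under 1.5-fold when library 4, 10 or 12 was left out. By the labels its log2 fold change was 0.32 (SE 0.30) with doxycycline in Y273F and -0.33 (SE 0.30) between the controls, and the difference of the doxycycline effects was -0.38 (SE 0.42); without libraries 2, 6 and 10 these were 0.000548, -0.2 and -0.154. MGST1, a membrane-bound glutathione transferase, stayed within 668 to 810 CPM. UGT1A6, a glucuronosyltransferase, had 10 reads in all, 2, 5 and 3 of them in libraries 1, 9 and 12, and it shares its last 500 bases with 8 other UGT1A genes.

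The export pumps of the ABCC family, which carry glutathione and glucuronide conjugates out of the cell, did not share a direction. ABCC3 (chr17:50634881-50692253) was read at 346, 142 and 268 CPM in WT control, 283, 336 and 145 CPM in WT doxycycline, 286, 251 and 322 CPM in Y273F control and 161, 328 and 307 CPM in Y273F doxycycline. Libraries 2, 6 and 10 were the lowest of all, 2.24-fold below 1, 5 and 9 and 1.87-fold below 4, 8 and 12, and the labelled groups overlapped. ABCC5 (chr3:183919934-184017884) went the other way, at 11.8, 19.6 and 7.21 CPM in WT control, 10.7, 13.4 and 16.0 CPM in WT doxycycline, 10.1, 12.9 and 7.73 CPM in Y273F control and 20.0, 12.9 and 9.23 CPM in Y273F doxycycline. ABCC5 was highest in libraries 2, 6 and 10, 1.70-fold above 1, 5 and 9 and 1.68-fold above 4, 8 and 12, on 56 to 115 reads. The first of these differences rests on library 9 in part, since without that library libraries 2, 6 and 10 were less than 1.5-fold above. By the labels, ABCC5 had a log2 fold change of 0.45 (SE 0.38) with doxycycline in Y273F and -0.33 (SE 0.38) between the controls, and without libraries 2, 6 and 10 these were 0.146 and 0.0521. Between 2, 6, 10 and 1, 5, 9, ABCC2 differed by -0.37 log2 units with no overlap, and ABCC1 by 0.31 with overlap.

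Of the remaining NRF2 targets, PIR (chrX:15384799-15493333), an iron-binding nuclear protein, was read at 190.2, 129 and 206 CPM in WT control, 194, 197 and 130.5 CPM in WT doxycycline, 199.9, 189 and 197 CPM in Y273F control and 116, 208 and 195 CPM in Y273F doxycycline. PIR was lowest in libraries 2, 6 and 10, 1.56-fold below 1, 5 and 9 and 1.54-fold below 4, 8 and 12, while the other 9 lay within 189 to 208 CPM. Without library 10, PIR was no longer at least 1.5-fold below 4, 8 and 12. OSGIN1, an oxidative stress-induced growth inhibitor, and TRIM16L, a near copy of TRIM16 whose reads may be shared with it, were -0.21 and -0.19 log2 units from libraries 1, 5 and 9, below them without overlap.

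Genes of the same pathways outside the list were read from 7 lists drawn up by function, also with earlier results of these data known. No gene of these lists passed the threshold in any labelled comparison. In libraries 2, 6 and 10 against 1, 5 and 9, with no overlap and at least 1.5-fold, the aldo-keto reductases and aldehyde dehydrogenases had 5 of 13 tested lower and 2 higher, with a median difference of -0.513 log2 units. ALDH3A1, an aldehyde dehydrogenase, was at 468 to 554 CPM there and at 2069 to 2674 CPM in 1, 5 and 9, which is 4.67-fold lower. AKR1B10, an aldo-keto reductase, was 1.67-fold lower, at 2233 to 2632 against 3794 to 4288 CPM. AKR1C1 and AKR1C2 of this list are near-identical copies, and their counts are uncertain. Genes that supply NADPH had 2 of 14 higher (median 0.00777), and ALDH1L2, a mitochondrial folate enzyme, was 2.28-fold higher, on 293 reads in all libraries together.

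The glutathione list had 5 of 23 higher and 2 lower, with a median of 0.164. SLC7A11, the cystine carrier that feeds glutathione synthesis, was at 453 to 493 CPM in 2, 6 and 10 and at 293 to 314 CPM in 1, 5 and 9, 1.58-fold higher, the opposite direction from GCLC and GPX2. CHAC1, which breaks glutathione down, was 2.36-fold higher, but from levels of 1.02 to 2.40 CPM, near the floor. NRF2 regulators and partners had 2 of 14 higher and 0 lower (median 0.189). MAFF, a small MAF protein, was 2.58-fold higher, and SQSTM1, the autophagy receptor that can bind KEAP1, was 1.46-fold higher, at 1187 to 1245 against 827 to 835 CPM.

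The thioredoxin and peroxiredoxin list had 3 of 15 higher and 1 lower (median 0.0496), with SESN2, a stress-induced sestrin, 3.02-fold higher. Iron and heme handling had 2 of 10 higher and 2 lower (median 0.114), and HMOX2, the constitutive heme oxygenase, was 2.09-fold higher, at 68.7 to 84.0 against 31.0 to 37.8 CPM. The list named for superoxide and peroxide removal had 0 of 8 higher and 1 lower (median 0.0147). That gene was NOX1, an NADPH oxidase that makes superoxide and does not remove it, 2.54-fold lower from 3.80 to 7.38 CPM. NOX1 had 267 reads on its own strand in all libraries together, beside 874 on the opposite strand. The background for all 7 lists in this comparison is again 13.6% of all genes lower and 16.4% higher.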

How the data were processed

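Per the labels' protocols, column-purified RNA was made into QuantSeq FWD V2 libraries, which read transcripts from the 3' end with their strand. STAR and GRCh38.p14 are named in the submitters' processing notes; the sources used here do not give the STAR version, the annotation or the handling of duplicate reads. Gene counts were deposited by the authors as whole numbers, per library and as a merged table of 40605 symbols, all equal to the transcript-strand counts. The merged table was used. Reads assigned to no gene, 35.5 to 43.2% of a library, were left out.

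Groups came from the sample titles. Counts were filtered with filterByExpr (minimum count 10), scaled by TMM and tested with edgeR 4.0.16 in R 4.3.3 (glmQLFit, glmQLFTest, a mean for each of the 4 groups, Benjamini-Hochberg threshold 0.05 over 13047 genes). Library sets were compared without a test on log2 CPM (prior count 2). The script was tested on simulated data. The members, lists and sets were chosen with earlier results of these data known. Values in all 12 libraries are given for NFE2L2, KEAP1, NQO1, HMOX1, GCLM, TXNRD1, SRXN1, PGD and FTL, for the 2 members with the highest and the 2 with the lowest log2 fold change in each labelled comparison, and for up to 4 members at each end of each pair of sets among those without overlap. Of the 7 pathway lists, SLC7A11, SQSTM1, AKR1B10 and the gene with the largest difference in each list are named; 1 result in the NADPH list is not reported here. Alternatives were other scalings and filters, DESeq2 1.42.0, limma-voom (limma 3.58.1), a replicate block, other count columns, only the groups compared, no fold minimum, and leaving out each library. Leaving out libraries 2, 6 and 10 together was added after seeing the data.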

Additional observations from a re-analysis of the deposited data

How the results depend on the processing

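No member passed the threshold in any labelled comparison under any of the 22 or 23 alternatives per comparison. Over all genes, DESeq2's Wald test called 2 in Y273F control against WT control (RIF1 and SON). Leaving out 1 library gave 0 to 1 genes in the Y273F comparison, the difference and the controls, and 0 in WT: SLX1B when library 8 was left out, RPL32P18 when library 11 was, and FKBP1C when library 12 was. These 5 genes were named after their values were seen. With a replicate block, 0 genes passed in each comparison, with 73, 113, 78 and 282 at an unadjusted p under 0.05; correlations of same-numbered libraries ran from -0.664 to 0.253, so the numbers do not pair the samples, and it changed no call. Over all alternatives, genes at an unadjusted p under 0.05 ranged from 48 to 285, 100 to 370, 78 to 367 and 220 to 776 in the 4 comparisons.

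For libraries 2, 6, 10 against 1, 5, 9, the members' median was -0.287 without a filter and -0.293 with unstranded counts. The unstranded counts lose most reads of some members. FTH1 had 402 unstranded reads beside 317137 on the transcript strand, and PRDX1 had 3188 beside 192567. CBR3 had 66 beside 1499, GSTM3 313 beside 1309 and EPHX1 1633 beside 3598, while most other members kept nearly all. The part of this loss in the median was not tested. Without a fold minimum, 6 members were higher and 20 lower in 2, 6, 10 against 1, 5, 9, and 15 were lower in 2, 6, 10 against 4, 8, 12. The numbers higher and lower were 1 and 7 in 4, 8, 12 against 3, 7, 11, and 1 and 8 in 3, 7, 11 against 1, 5, 9. Leaving out 1 library gave 0 to 2 lower members in 4, 8, 12 against 3, 7, 11, beside 2.79 to 3.83% of all genes. HMOX1 was lost without library 8, and GPX2 was gained without library 3 or 12. The medians then ran from -0.264 to -0.21 in 2, 6, 10 against 1, 5, 9, from -0.114 to -0.0425 in 4, 8, 12 against 3, 7, 11, and from -0.102 to -0.0303 in 3, 7, 11 against 1, 5, 9. The causes were not tested. No called member changed direction under any alternative run. Of single members, 38 of 3181 log2 fold changes moved by more than their SE and 12 of 1816 set differences by more than the spread within sets. Low counts limit HMOX1, ABCC5, GSTM3, CHAC1, ALDH1L2 and NOX1, and the shallowest libraries are 10 and 8.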
